A study of Mus musculus with 22 samples.

Results

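Regulatory T cells (Tregs) of mouse visceral adipose tissue were compared between Bmal1 KO and Bmal1 WT over 3 diets at once. All libraries outside the adoptive transfer experiment were taken, which gave 18 of the 22 libraries of the series, 9 KO and 9 WT. Every animal was a male of the strain C57BL/6 Foxp3.Cre-YFP, so WT cells carried the Foxp3-driven Cre and YFP too, and the labels do not state which part of Bmal1 was removed. Each library came from 1000 double-sorted Foxp3YFP+ cells, taken at ZT0, when the lights come on. The lean diet (LFD) mice and the mice with 4 weeks of high fat diet (HFD) were 18 weeks old. The mice with 16 weeks of HFD were 30 weeks old, so diet and age cannot be told apart in that group. Each diet held 3 KO and 3 WT libraries. The remaining 4 libraries, 2 KO and 2 WT, came from Tregs recovered 9 weeks after adoptive transfer, at 20 weeks of age, and served as a separate set of cells. The labels do not say that libraries of a group came from separate animals, so p-values measure the spread between libraries. The comparison asks which genes differ between KO and WT on average over the 3 diets. This includes changes too small for a test of 3 against 3 libraries. A call does not require an equal change on each diet.

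The count tables were of like depth in both arms. Total counts ran from 1955940 to 3001591 in KO and from 2090078 to 3467019 in WT, and from 4814337 to 5990319 after transfer. The limit that a count of 0 allows, 3 counts, was 0.993 to 1.63 CPM (a library's counts brought to one common total) in KO and 0.853 to 1.52 CPM in WT, counting error only. All levels are CPM scaled by the TMM method, and KO is set against WT with diet as a blocking factor in the edgeR quasi-likelihood test. A gene is said to be called where its Benjamini-Hochberg adjusted p over all 11698 tested genes was under 0.05. Cd3e, a part of the T cell receptor complex, was 724 to 921 CPM in KO and 733 to 1026 CPM in WT. Foxp3, the factor that defines Tregs, was 412 to 587 CPM in KO and 514 to 601 CPM in WT, and Cd8a had no count in any of the 18 libraries. Cd8b1, the other chain of CD8, was 9.42 to 21.2 CPM in KO and 10.8 to 38.1 CPM in WT. The sums of the 6 T cell and Treg markers overlapped between arms, at 3740 to 4206 CPM in KO and 3643 to 4123 CPM in WT.

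BMAL1, the product of Arntl, pairs with CLOCK or NPAS2 and binds E-boxes in the promoters of clock genes, among them the repressors Per and Cry and the nuclear receptors Nr1d1 and Nr1d2. The receptors REV-ERBα and REV-ERBβ, encoded by Nr1d1 and Nr1d2, bind the receptor site AGGTCA and repress Arntl, Npas2 and Cry1, which ROR receptors activate. Tregs of visceral fat are a tissue population that restrains inflammation of adipose tissue and is known to shrink in obesity.

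To show which genes carry these elements, 3 promoters are printed from RefSeq (build GRCm38.p6), from 250 bases before to 50 bases after the annotated start, with the E-box CACGTG and the receptor site AGGTCA in capitals (TGACCT where the receptor site lies on the opposite strand). Nr1d2 had the smallest adjusted p among the genes that fell, Cry1 among those that rose, and Dhx40 was the one gene outside the clock lists, among those called, whose promoter held an E-box. Nr1d2 lies at chr14:18239057-18239356, Cry1 at chr10:85185005-85185304 and Dhx40 at chr11:86807611-86807910, all on the minus strand.
Nr1d2: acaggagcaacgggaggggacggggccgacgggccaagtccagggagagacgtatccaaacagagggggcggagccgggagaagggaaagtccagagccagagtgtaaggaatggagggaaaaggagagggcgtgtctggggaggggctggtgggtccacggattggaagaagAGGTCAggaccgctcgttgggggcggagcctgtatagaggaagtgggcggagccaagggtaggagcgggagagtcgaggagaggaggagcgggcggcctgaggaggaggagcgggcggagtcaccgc
Cry1: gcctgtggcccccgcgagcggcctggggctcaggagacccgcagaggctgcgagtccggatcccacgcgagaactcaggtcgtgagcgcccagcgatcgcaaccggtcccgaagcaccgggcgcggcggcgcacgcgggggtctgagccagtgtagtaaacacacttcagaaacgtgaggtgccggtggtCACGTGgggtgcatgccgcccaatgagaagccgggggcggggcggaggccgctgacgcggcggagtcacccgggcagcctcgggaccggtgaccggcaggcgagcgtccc
Dhx40: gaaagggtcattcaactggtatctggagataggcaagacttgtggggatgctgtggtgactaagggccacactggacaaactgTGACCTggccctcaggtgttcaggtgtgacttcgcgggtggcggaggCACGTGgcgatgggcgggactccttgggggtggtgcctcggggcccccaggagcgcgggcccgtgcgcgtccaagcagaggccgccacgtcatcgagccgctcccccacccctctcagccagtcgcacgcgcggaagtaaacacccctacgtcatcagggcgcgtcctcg
The E-box began 60 bases before the start of Cry1 and 120 bases before that of Dhx40, and no E-box of these letters was in the Nr1d2 window. Both strands were searched, and no match overlapped another. Of the 18 called genes 15 had a promoter in the table. An E-box was in 2 of these (13.3%), against 12.2% of the tested genes and 7.15% of all promoters. The receptor site was in 3 of the 15 (20.0%), against 14.7% of the tested genes. These matches describe letters in a window and were not tested as binding sites.

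Over the 3 diets 18 genes were called, 0.154% of those tested, 9 higher and 9 lower in KO. At an unadjusted p under 0.05 there were 799 genes, or 6.83%. Pooling the diets lowered the median standard error of a log2 fold change from 0.26 to 0.27 in the single diets to 0.155. The smallest change called was a log2 fold change of 0.45, while the 3 against 3 tests called nothing smaller than 1.14 on lean diet, 0.93 at 4 weeks and 1.24 at 16 weeks. Those tests called 5, 8 and 5 genes (0.0427%, 0.0684% and 0.0427% of those tested). The lean count was 11 without lean WT 1, the 4 weeks count 4 without WT 1, WT 3 or KO 3 of that diet, and the 16 weeks count 35 without 16 weeks WT 1. Of the 18 genes, 10 were called in no single diet (0.0855% of those tested), 5 higher and 5 lower, and 4 of these had a log2 fold change under 1 in size. With a diet left out the pooled test called 8 genes (without lean diet), 6 (without 4 weeks of HFD) and 25 (without 16 weeks of HFD), and all 8, all 6 and 13 of these were among the 18. The number called in no single diet was then 2, 0 and 17, and it was 19 without 4 weeks WT 3. All 18 genes had the same direction in the 3 diets, as had 25.6% of all tested genes. In 11 of the 18 the 9 KO libraries lay wholly apart from the 9 WT libraries, and no other tested gene had this (0.094% of those tested). The 18 genes were called on these same libraries, so their shared direction and separated arms follow largely from that choice and are no independent support.

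**Figure D1:**
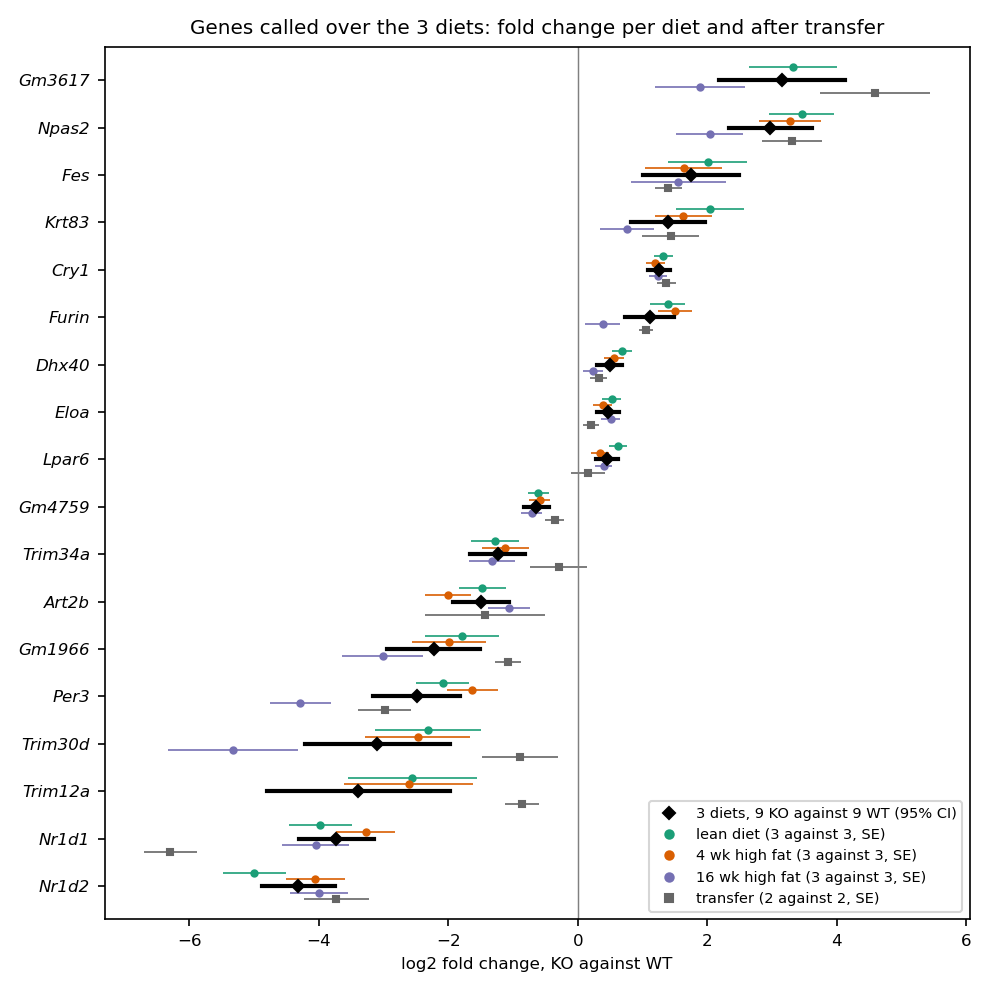
Log2 fold changes of KO against WT for the 18 genes called over the diets, with 95% confidence intervals for 9 against 9 libraries (black) and standard errors for each diet and for transfer (colours). Each gene keeps its side of 0 in every diet and after transfer; Gm3617 at 4 weeks and Trim12a at 16 weeks are not drawn because an arm had no count.

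Arntl itself did not pass. It was 75.8, 88.1 and 103 CPM in KO (lowest, median and highest of 9) and 56.4, 76.5 and 109 CPM in WT, and the arms overlapped (log2 fold change 0.22 ± 0.10 SE, adjusted p = 0.70). A count over the whole gene can include transcripts that lack an exon, so it does not check the labels. The clock genes with called changes were 5. Nr1d2 was 0, 2.21 and 3.08 CPM in KO and 24.4, 37.1 and 52.4 CPM in WT. All KO libraries lay below all WT libraries (log2 fold change -4.32 ± 0.27, adjusted p = 1.28e-09). Nr1d1 fell likewise, from a WT median of 26.4 to a KO median of 1.16 CPM (-3.73 ± 0.28, adjusted p = 2.6e-08). Its exons overlap Thra over 8.5% of their bases, and the kit does not mark strand.

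Cry1, which encodes a repressor of BMAL1-CLOCK, rose by like amounts on each diet. It was 156, 194 and 237 CPM in KO and 64.1, 81.6 and 111 CPM in WT, with no overlap, and its log2 fold change was 1.32 on lean diet, 1.20 at 4 weeks and 1.24 at 16 weeks (1.25 ± 0.08 over the diets, adjusted p = 1.28e-09). Npas2, the partner that can replace CLOCK, was 11.6, 56.0 and 64.0 CPM in KO and 0, 5.12 and 9.57 CPM in WT (2.97 ± 0.31, adjusted p = 8.21e-06). The 3 lowest KO values of Npas2, 11.6 to 21.2 CPM, were those of the 16 weeks group. Per3, a period gene, was 0.386, 3.36 and 7.35 CPM in KO and 13.01, 18.3 and 27.9 CPM in WT, again apart (-2.49 ± 0.32, adjusted p = 0.00031). Its KO libraries were lowest at 16 weeks, at 0.386 to 1.47 CPM, and its interaction with diet had an unadjusted p of 0.00114 and an adjusted p of 0.381 in edgeR.

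Of the 11 tested clock genes driven by BMAL1-CLOCK, 3 were called lower and 0 higher, while 0.154% of all tested genes were called. Their median log2 fold change was -0.24 against 0.00 over all genes, and 4 of the 11 had positive values. Of the 6 under REV-ERB and ROR control 2 were called higher and 0 lower, with a median of 0.24. The other clock genes gave values that did not pass. Cry2, the second cryptochrome, was 35.1, 39.4 and 56.0 CPM in KO and 19.8, 24.9 and 39.0 CPM in WT (0.59 ± 0.14, adjusted p = 0.165), and the arms overlapped by a single WT library. Ciart, a repressor of CLOCK-BMAL1, had -0.91 (adjusted p = 0.364), the output factor Dbp -0.40 (0.73), Per1 -0.24 (0.644) and the output factor Hlf 1.00 (0.527). None of the 10 genes for the turnover of clock proteins, such as kinases and ubiquitin ligases, was called (median -0.11). With 0.154% of all tested genes called, 0 of 10 says little on these genes.

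The modest changes that only the pooled test called were in 4 genes. Eloa encodes elongin A, a subunit of the complex that raises the elongation rate of RNA polymerase II. It was 216, 287 and 339 CPM in KO and 125, 197 and 264 CPM in WT. The 9 and 9 libraries overlapped, but within each diet every KO library was above every WT library. Its log2 fold change was 0.47 ± 0.08 (adjusted p = 0.00937), made of 0.52 on lean diet, 0.39 at 4 weeks and 0.51 at 16 weeks, where the adjusted p was 0.41, 0.999 and 0.272. On the opposite strand Gm13008 overlaps 10.8% of its exon bases.

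Lpar6 encodes a G protein-coupled receptor for lysophosphatidic acid. It was 65.4, 73.6 and 85.9 CPM in KO and 46.9, 52.6 and 63.5 CPM in WT, so that the lowest KO library was above the highest WT library. The change was 0.45 ± 0.08 (adjusted p = 0.00948), with 0.62, 0.34 and 0.40 in the diets in order of HFD length. The gene lies inside Rb1 on the opposite strand, and 7.6% of its exon bases overlap Rb1 exons.

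Dhx40 encodes a DEAH-box RNA helicase and had the E-box promoter printed above. It was 93.7, 138 and 188 CPM in KO and 79.6, 96.4 and 120 CPM in WT. KO was above WT in each diet but the arms overlapped across diets, since the 16 weeks KO libraries were 93.7 to 106 CPM. The log2 fold change was 0.50 ± 0.09 (adjusted p = 0.0193), with 0.68, 0.56 and 0.24 in the diets. Its call was lost without lean WT 1, lean WT 2, lean KO 2, 4 weeks WT 1, 4 weeks WT 2 or 4 weeks KO 3 (adjusted p 0.0549 to 0.0701).

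Gm4759, an unprocessed pseudogene, was the modest call that fell, and is named after its values were known. It lies on chromosome 7, 6.78 Mb before the start of Arntl, among the calls near Arntl described below. Loss of Bmal1 and any other difference between KO and WT mice on that stretch cannot be told apart. Gm4759 was 144, 175 and 231 CPM in KO and 226, 278 and 333 CPM in WT, and the ranges met only at 1 library each. The log2 fold change was -0.64 ± 0.09 (adjusted p = 0.00106), with -0.61, -0.59 and -0.71 in the diets. Eloa, Lpar6 and Gm4759 kept an adjusted p under 0.05 in all 18 fits that left out a library, but each lost it with at least 1 diet left out. Eloa had an adjusted p of 0.402 without lean diet, 0.127 without 4 weeks of HFD and 0.219 with no diet term. Lpar6 had 0.457, 0.127 and 0.105 without lean diet, 4 weeks and 16 weeks of HFD. Gm4759 had 0.0638 without 4 weeks of HFD. Dhx40 had 0.596 without lean diet, 0.22 without 4 weeks of HFD and 0.283 with no diet term.

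**Figure D2:**
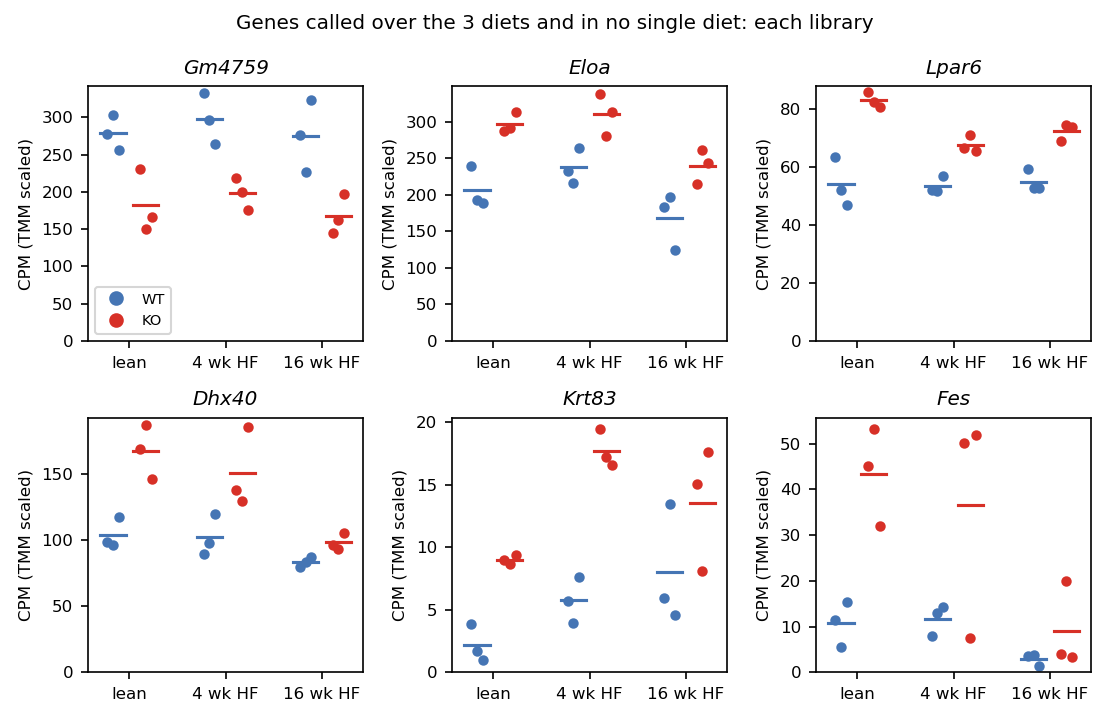
CPM of each library (points) and group means (bars) for 6 genes called over the 3 diets and in no single diet, WT blue and KO red. In Gm4759, Eloa, Lpar6 and Dhx40 the KO points lie on one side of the WT points in each diet, while Krt83 overlaps at 16 weeks and Fes at 4 and 16 weeks.

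Krt83 and Fes had greater folds with less even libraries. Krt83, a hair keratin, was 8.10, 15.03 and 19.5 CPM in KO and 0.966, 4.56 and 13.4 CPM in WT, with overlap at 16 weeks (1.39 ± 0.27, adjusted p = 0.0352). Of its 38-base words, the read length, 31.1% occur in other genes, mostly in Krt86, so its count is uncertain. Its call held only without lean WT 1, 4 weeks WT 3, 16 weeks WT 2 or 16 weeks KO 2 among the fits that left out a library, and the other 14 gave up to 0.104. The epithelial keratins among the markers were near 0 in both arms, with Krt18 at most 4.86 CPM, Krt8 at most 0.733 CPM and no count of Krt19. The summed mesothelial and epithelial markers, 37.4 to 124 CPM in KO and 30.9 to 193 CPM in WT, were mostly Lrrn4 (34.8 to 123 and 30.4 to 192 CPM).

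Fes, a cytoplasmic tyrosine kinase studied mainly in myeloid cells, was 3.32, 32.0 and 53.1 CPM in KO and 1.40, 8.04 and 15.5 CPM in WT. On lean diet the KO libraries, 32.0 to 53.1 CPM, were all above WT. At 4 weeks KO 2 was at 7.62 CPM beside 50.1 and 51.8 CPM in the others, and at 16 weeks KO 2 was at 20.0 CPM beside 4.03 and 3.32 CPM. The log2 fold change was 1.75 ± 0.36 (adjusted p = 0.0463). The call held only without 4 weeks KO 2 (adjusted p = 0.00277), 16 weeks WT 2, 16 weeks KO 1 or 16 weeks KO 3, and the other 14 fits gave up to 0.157. The summed macrophage markers were 9.16 to 17.9 CPM in KO and 3.85 to 15.5 CPM in WT, and Cd68, the 1 of the 9 listed markers with enough counts to be tested, had 0.36 (adjusted p = 0.899). The other 8 were at or below 4.36 CPM in each library, and their part in Fes was not tested.

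Furin, a protease that cuts precursors such as that of TGF-β into their active forms, lies 638 bases from Fes on the same strand of chromosome 7 and shares no exon with it. It was 110, 373 and 556 CPM in KO and 64.5, 136 and 176 CPM in WT (1.11 ± 0.19, adjusted p = 0.00606). The call ended without lean diet (adjusted p = 0.464), without 4 weeks of HFD (0.153), with no diet term (0.223) and with a robust spread (0.0841). The change was 1.39 on lean diet, 1.51 at 4 weeks and 0.38 at 16 weeks. At 16 weeks KO, 110 to 119 CPM, overlapped WT, 64.5 to 130 CPM, and the interaction with diet had an unadjusted p of 0.0147 (adjusted p = 0.642 in edgeR). At 4 weeks KO 2 was again the low library, at 222 CPM beside 556 and 502 CPM. Furin was the 1 called gene of the 17 tested genes of TGF-β maturation and signalling, whose median was 0.02. Tgfb1, the ligand, had 0.15 (adjusted p = 0.91) and the integrin chain Itgb8, which releases active TGF-β, -0.01 (0.998).

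The called genes were uneven over the genome. Arntl lies on chromosome 7 (chr7:113207465-113314126, mm10), and this chromosome held 8 calls among 899 tested genes (0.89%), against 10 among 10799 elsewhere (0.0926%). Without the 5 clock genes, none of which lies on chromosome 7, the rest of the genome held 5 calls among 10794 (0.0463%). Within 20 Mb of Arntl 6 of 274 tested genes were called (2.19%), all lower in KO, and 5 of these were among the 10 genes called in no single diet. They lay between 11.62 and 6.6 Mb before the start of Arntl, and Furin and Fes lay 32.8 Mb before it. No gene after the start of Arntl was called. Loss of Bmal1 and any other difference between KO and WT mice on the stretch of chromosome 7 around Arntl cannot be told apart in this design.

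**Figure D3:**
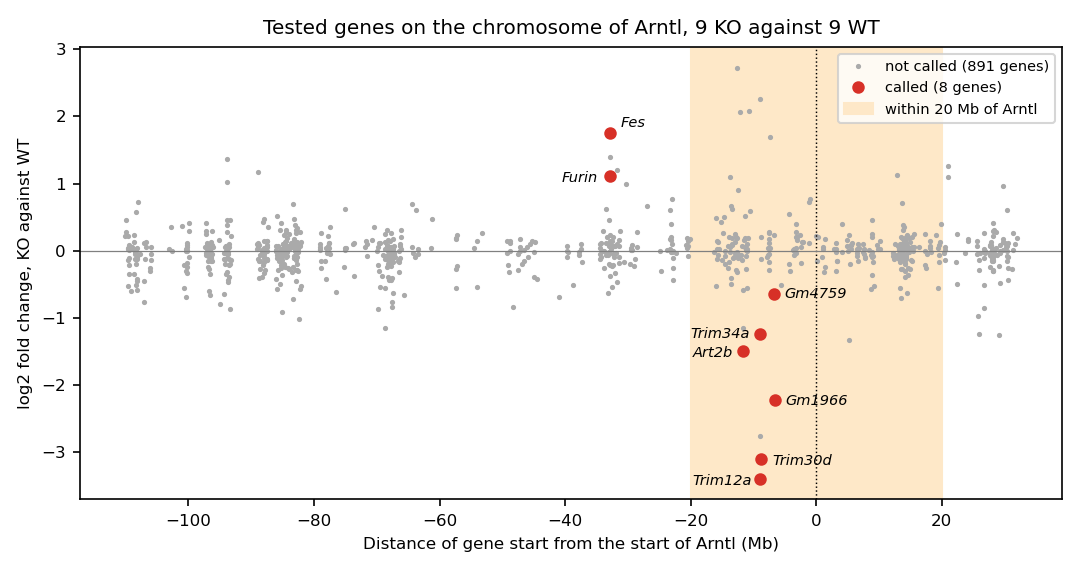
Log2 fold change of KO against WT (9 against 9) for the 899 tested genes of the chromosome of Arntl by distance of their start from the start of Arntl in Mb. The 6 called genes within 20 Mb (shaded) are all below 0, and Furin and Fes, 32.8 Mb away, are above it.

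Art2b, which encodes an enzyme on the T cell surface that attaches ADP-ribose to proteins, lies at chr7:101576970-101585600. It was 8.01, 17.9 and 45.8 CPM in KO and 34.6, 56.7 and 89.6 CPM in WT, with no overlap inside any diet (-1.49 ± 0.21, adjusted p = 0.000861). The call of Art2b ended without 4 weeks of HFD (adjusted p = 0.114). It was the 1 called member of the 9 tested genes of purinergic signalling and ADP-ribosylation, whose median was -0.10. P2rx7, a purinergic receptor that surface ADP-ribosyltransferases of mouse T cells modify, had -0.07 ± 0.18 (adjusted p = 0.974).

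Of the Trim cluster, whose tripartite motif proteins act in antiviral defence, 3 of 9 tested members were called lower and 0 higher. Over all tested genes 0.154% were called. Of the 9 members 4 had positive log2 fold changes. Trim12a (chr7:104299894-104315466) was 0, 0 and 26.9 CPM in KO and 35.3, 61.1 and 79.9 CPM in WT, with no overlap (-3.39 ± 0.68, adjusted p = 0.0389). At 16 weeks no KO library had a count, so WT, with a mean of 63.9 CPM, was at least 59.0-fold higher against 3 counts in each KO library. The call of Trim12a held in only 5 of the 18 fits that left out a library, those without lean WT 3, lean KO 1, 4 weeks WT 3, 4 weeks KO 1 or 16 weeks WT 2, and the other 13 gave up to 0.0961. Trim30d (chr7:104470014-104507849) was 0, 0.735 and 8.60 CPM in KO and 10.3, 20.8 and 30.8 CPM in WT (-3.10 ± 0.54, adjusted p = 0.00923). Trim34a (chr7:104244457-104262234) was 6.59, 10.3 and 18.0 CPM in KO and 19.3, 23.8 and 37.3 CPM in WT (-1.24 ± 0.20, adjusted p = 0.00439). Both pairs of arms lay apart. The calls of Trim12a, Trim30d and Trim34a all ended with any 1 diet left out. Without lean diet, 4 weeks and 16 weeks of HFD the adjusted p of Trim30d was 0.0698, 0.0638 and 0.109. That of Trim34a was 0.092, 0.0678 and 0.0725, and that of Trim12a 0.167, 0.108 and 0.227. With a robust spread Trim30d had 0.0769 and Trim12a 0.312. Trim34a shares 65.1% of its 38-base words with other genes, mostly Trim34b, so reads could be split between these copies.

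Other genes near Arntl had values that did not pass, in both directions, and were chosen after they were seen. Trim5 was 0, 0.368 and 13.4 CPM in KO and 10.1, 21.4 and 32.2 CPM in WT (-2.76, adjusted p = 0.0914). Trim21 was 25.4, 59.9 and 91.0 CPM in KO and 1.59, 5.26 and 37.0 CPM in WT (2.08, adjusted p = 0.0914). Trim68 had 0.59 (0.0629) and Trim34b 2.25 (0.179). The pseudogene Gm1966 was called and chosen after its values were seen, at 6.97, 14.6 and 59.4 CPM in KO and 61.8, 97.6 and 146 CPM in WT (-2.23 ± 0.35, adjusted p = 0.00258). It shares 28.7% of its 38-base words with other genes, and its call ended without 16 weeks of HFD (adjusted p = 0.0619) and with a robust spread (0.0699).

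Several of these genes shared an order of libraries within an arm, chosen after the values were seen. Lean KO 1 and 4 weeks KO 1 were the KO libraries with Trim12a counts, at 26.5 and 26.9 CPM beside 0 in the other 7, and they also had the highest KO values of Gm1966 (59.4 and 54.6 CPM), Trim30d (8.59 and 8.60 CPM) and Trim34a (16.4 and 18.0 CPM). In Gm35082 and Trim21 they held the lowest KO values, at 13.4 and 19.8 CPM and at 25.4 and 26.9 CPM. Among WT libraries, lean WT 3, 4 weeks WT 3 and 16 weeks WT 1 held the 3 lowest values of Trim12a, 35.3, 35.5 and 39.8 CPM, and the 3 highest of Trim21, 28.5, 37.0 and 34.7 CPM. They were also the only WT libraries of the diets with counts of Gm35082, at 10.6, 14.7 and 27.6 CPM. In Gm4759 lean KO 1 and 4 weeks KO 1 ranked 1 and 2 of the 9 KO values from the highest. Lean WT 3, 4 weeks WT 3 and 16 weeks WT 1 ranked 8, 7 and 6 of its WT values, and 16 weeks WT 2 was lowest. Art2b did not share this order: lean KO 1 and 4 weeks KO 1 ranked 3 and 6 of its 9 KO values, and lean WT 3, 4 weeks WT 3 and 16 weeks WT 1 ranked 7, 4 and 1 of its WT values from the highest. After transfer both KO libraries had Trim12a counts, at 26.8 and 20.6 CPM, against 45.8 and 40.3 CPM in WT.

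**Figure D4:**
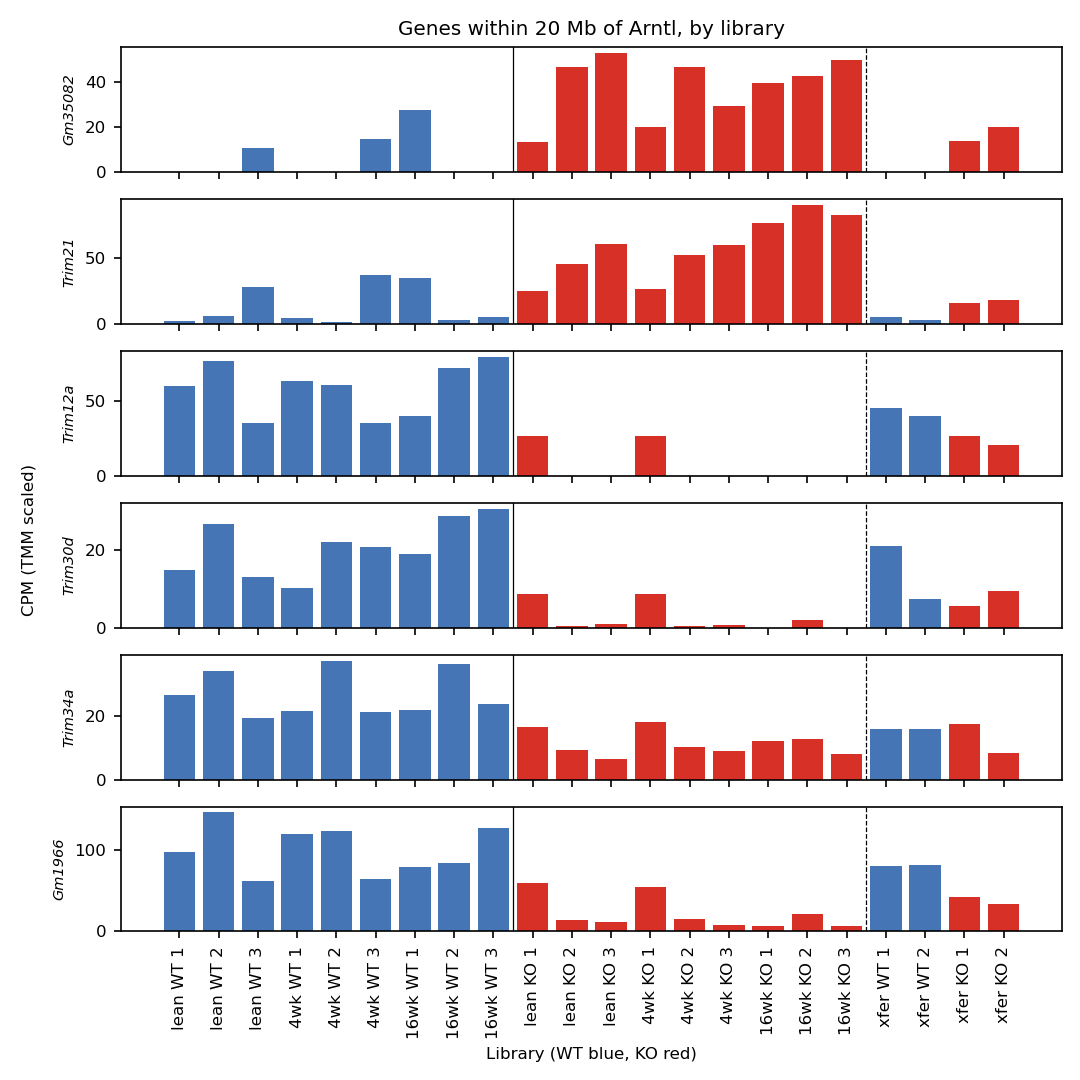
CPM of 6 genes within 20 Mb of Arntl in each library, WT blue and KO red, with the transfer libraries at the right. Lean KO 1 and 4 weeks KO 1 hold Trim12a counts that the other KO libraries of the diets lack, and lean WT 3, 4 weeks WT 3 and 16 weeks WT 1 hold Gm35082 counts that the other WT libraries lack.

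Gm3617, a processed pseudogene inside the span of Npas2, named after its values were known, rose with that gene. It was 0.995, 3.37 and 8.48 CPM in KO and 0, 0.481 and 0.853 CPM in WT, with all arms apart (3.15 ± 0.47, adjusted p = 0.00153). No WT library at 4 weeks had a count, so KO there was at least 2.69-fold higher against 3 counts in each. The WT libraries held 0 to 2 counts each and the KO libraries 3 to 18. Of its 38-base words 53.9% occur in other genes, so its count is uncertain.

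Ranges of KO and WT were apart in the same direction in each of the 3 diets in 18 genes (0.154% of those tested), of which 15 were called. The other 3 did not pass. Stard8 was 2.21, 4.40 and 6.59 CPM in KO and 0, 1.42 and 2.56 CPM in WT (2.05, adjusted p = 0.114), and at 4 weeks KO was at least 2.80-fold above WT, which had no count. Eif4e, the cap-binding factor of translation, was 57.0, 71.7 and 103 CPM in KO and 51.5, 54.0 and 67.3 CPM in WT (0.36 ± 0.09, adjusted p = 0.231). At 4 weeks its lowest KO library, 56.95 CPM, was barely above the highest WT library, 56.81 CPM. After transfer Eif4e had the opposite direction (-0.19 ± 0.20, unadjusted p = 0.364). The non-coding Gm35082 near Arntl had 2.73 (adjusted p = 0.167). The remaining 3 calls, Furin, Krt83 and Fes, had ranges apart in 2, 2 and 1 of the diets.

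A difference of the KO effect between diets was tested for every gene with a genotype by diet interaction over the 3 diets. The edgeR test called 0 of 11698 genes, with 795 (6.8%) at an unadjusted p under 0.05, and the DESeq2 likelihood ratio test called 18. It also depended on a WT library, with 7 genes called by edgeR without lean WT 1 and 20 without 16 weeks WT 1. For the 18 genes called over the diets the interaction had an adjusted p of 0.381 to 0.988 in edgeR. A p that misses the threshold does not show that the effect was equal. With 3 libraries a group the median standard error of a diet's effect over all tested genes was near 0.26. Among the 18 it ran from 0.136 for Lpar6 to 2.12 for Trim12a, both at 16 weeks, where Trim12a had no KO count. Of the 11 genes called in any single diet 8 were called over the diets and 3 were not. These, named after their values were known, were Dst, a cytoskeletal linker, at 4 weeks (0.93 there and 0.13 and 0.05 on lean diet and at 16 weeks), Zswim4 on lean diet (1.14, against 0.82 and -0.43) and the eotaxin receptor Ccr3 at 16 weeks (-2.03, against 0.02 and 0.22). The unadjusted interaction p was 0.00193, 7.17e-05 and 3.17e-05 in that order, and the adjusted p was 0.485, 0.303 and 0.303.

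The 4 transfer libraries were not used for the calls over the diets and share no library with them. Of 11715 genes tested there 20 were called (0.171%). All 18 genes had the same direction after transfer, as had 51.4% of the 11003 genes tested in both. An unadjusted p under 0.05 was reached by 13 of the 18, against 6.53% of all genes, and an adjusted p under 0.05 by 7, which were the 5 clock genes, Furin and Fes. Of the 10 genes called in no single diet 10 had the same direction, 6 had an unadjusted p under 0.05, and 1, Fes, was called. Fes was 77.3 and 93.3 CPM in KO and 33.0 and 31.7 CPM in WT (1.40 ± 0.21, adjusted p = 0.0417). Furin was 758 and 858 CPM in KO and 402 and 378 CPM in WT (1.05 ± 0.11, adjusted p = 0.00462).

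The 4 modest genes had smaller fold changes after transfer. Eloa was 341 CPM in both KO libraries and 272 and 319 CPM in WT (0.20 ± 0.12, unadjusted p = 0.131, adjusted p = 0.871). Lpar6 was 54.5 and 101 CPM in KO and 71.2 and 68.5 CPM in WT, so KO lay on both sides of WT (0.16 ± 0.27, unadjusted p = 0.571). Dhx40 was 196 and 192 CPM in KO and 149 and 161 CPM in WT (0.32 ± 0.13, unadjusted p = 0.0377). Gm4759 had -0.35 ± 0.15 (unadjusted p = 0.0382). Krt83, which is not a modest gene, had 1.44 ± 0.44 (unadjusted p = 0.00926), against 1.39 over the diets. Whether these values differ from those over the diets was not tested. Near Arntl, Trim34a had -0.30 ± 0.44 (unadjusted p = 0.523) and Trim12a -0.86 ± 0.26 (unadjusted p = 0.00955). Trim30d had -0.89 ± 0.59 (unadjusted p = 0.161), and its arms overlapped, with KO at 5.61 and 9.593 CPM and WT at 21.04 and 7.425 CPM. Art2b had -1.43 ± 0.93 (unadjusted p = 0.157) and Gm1966 -1.08 ± 0.20 (unadjusted p = 0.000465). Gm35082 had no count in either WT library, so KO, with a mean of 16.8 CPM, was at least 29.8-fold higher.

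Of 24 gene lists, calls were found in the 2 clock lists, TGF-β maturation (Furin), purinergic genes (Art2b) and the Trim cluster, and in the other 19 lists 0 members passed in either direction. Over all tested genes 0.154% were called, so 0 calls in lists this short do not show that they were unchanged. In core Treg identity 0 of 19 were called (median -0.01), and Foxp3 had -0.07 ± 0.07 (adjusted p = 0.899). Il2ra, the IL-2 receptor chain, was 356, 678 and 971 CPM in KO and 305, 496 and 656 CPM in WT (0.40 ± 0.11, adjusted p = 0.422). The inhibitory receptor gene Lilr4b was 268, 379 and 519 CPM in KO and 171, 267 and 329 CPM in WT (0.61 ± 0.13, adjusted p = 0.0754), and shares 31.6% of its 38-base words with other genes. These arms overlapped and the genes did not pass.

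Pooling set opposite diet values against each other in some lists. The 21 adipose Treg genes, such as the IL-33 receptor Il1rl1, had a median of 0.01 over the diets, from 0.40 on lean diet, 0.32 at 4 weeks and -0.66 at 16 weeks. The 27 immediate early and T cell receptor induced genes had 0.10, from 0.43, 0.10 and -0.44. Only 9.52% and 14.8% of these lists kept 1 direction in the 3 diets, against 25.6% of all tested genes. Il1rl1 had 0.26, 0.80 and -0.49 in the diets and 0.19 ± 0.22 over them (adjusted p = 0.93).

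The cell cycle list had 34 of 35 members with positive values (97.1%, against 50.7% of all genes) and a median of 0.32, with 0 called. Its medians were -0.03 on lean diet, 0.18 at 4 weeks and 0.77 at 16 weeks. In all diets 14 members (40%) kept a positive sign and 0 a negative sign. Of all 11698 tested genes 1465 kept a positive and 1532 a negative sign, together 25.6%. Ccne2, a cyclin of S phase entry, was 2.31, 6.98 and 14.6 CPM in KO and 1.14, 3.38 and 8.33 CPM in WT (1.14 ± 0.36, adjusted p = 0.508). Top2a, a topoisomerase of dividing cells, had -0.10, 0.51 and 1.21 in the diets (0.55 ± 0.27, adjusted p = 0.738). The 24 interferon-stimulated genes had a median of -0.11 over the diets, from -0.25 on lean diet, -0.45 at 4 weeks and 0.28 at 16 weeks, and 8.33% kept 1 direction. After transfer their median was 0.21. The 56 oxidative phosphorylation genes had 0.03, from 0.12, -0.07 and 0.05. Both lists had 0 calls.

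**Figure D5:**
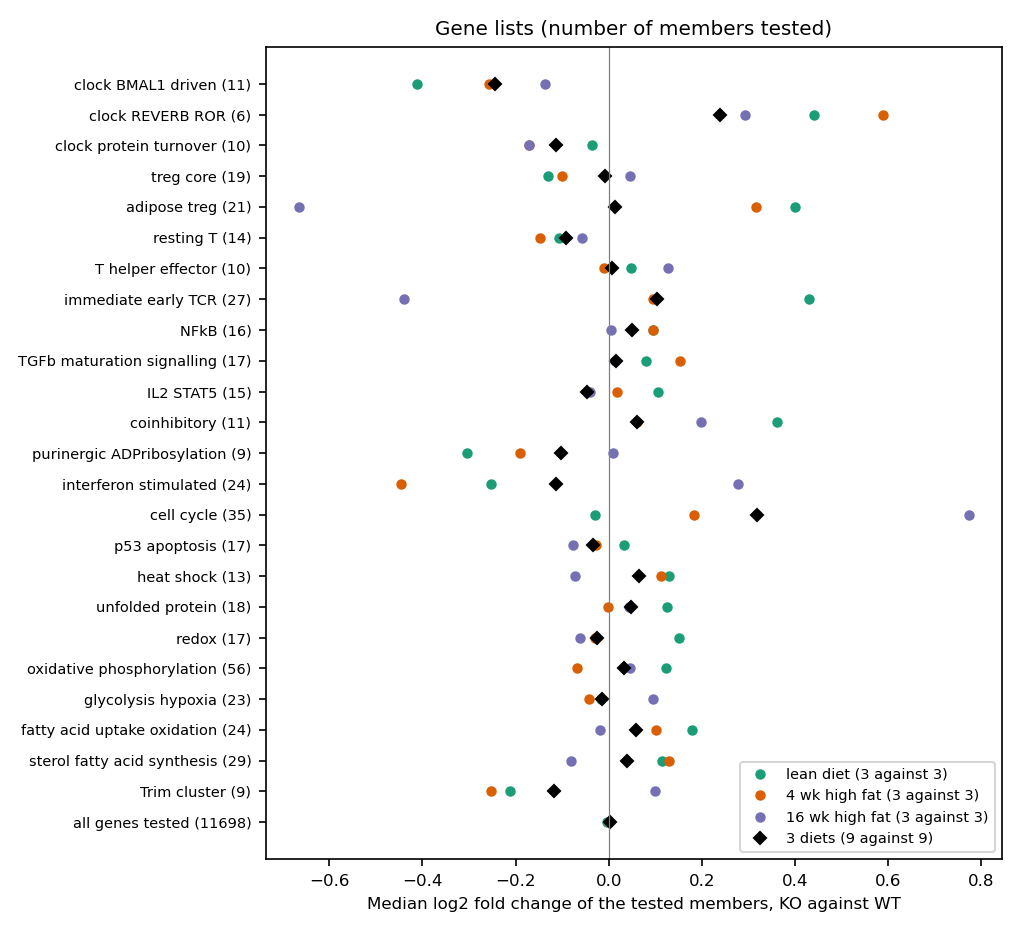
Median log2 fold change of KO against WT over the tested members of each list, per diet (coloured points, 3 against 3) and over the diets (black, 9 against 9). The clock lists keep 1 side in all diets, while adipose Treg and immediate early genes change side at 16 weeks and cell cycle genes are highest there.

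Markers of other cells were present in both arms. Of 71 markers in 10 lists only 19 had enough counts to be tested, and 0 of these were called. Over all tested genes 0.154% were called, so 0 of 19 says little on these markers. The untested markers could not be called, among them all 8 eosinophil and mast cell markers and 5 of the 6 stromal markers. In bulk libraries fewer cells of a type and less RNA per cell cannot be told apart. The summed cytotoxic T and NK markers were 108, 156 and 331 CPM in KO and 164, 266 and 728 CPM in WT, with Cd8a at 0 and Cd8b1 above 0 throughout. The summed B cell markers were 352, 431 and 1272 CPM in KO and 328, 498 and 968 CPM in WT. At 16 weeks KO 1 had the highest stromal sum (130 CPM, other KO and WT libraries lower) and adipocyte sum (54.3 CPM). Marker sums overlapped between the arms, and their part in the calls was not tested. Without that library the pooled test called 19 genes, 16 of them among the genes called with all libraries. Krt83 (adjusted p = 0.0523) and Trim12a (0.0729) did not pass in that fit.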

How the data were processed

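RNA-seq counts of the 18 Treg libraries of the 3 diets were analysed, with the 4 transfer libraries as separate cells. STAR 2.7.3a, the build mm10 and featureCounts are named in the submitters' processing notes; how featureCounts treated strand is not given in the sources used. What was deposited is a table of whole-number counts of 55011 gene symbols, with no scaling by the authors seen in the values. Per the labels' protocols, an anchored oligo(dT) primer selected polyadenylated RNA, and the cDNA was fragmented by transposon after PCR, which does not mark strand, and read as pairs of 38 bases.

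The quasi-likelihood test of edgeR 4.0.16 in R 4.3.3 was used on TMM-scaled libraries. The filter (filterByExpr over the 6 groups, minimum count 10) left 11698 genes, or 11715 in transfer. The 9 against 9 test had diet and genotype as additive terms. The tests in single diets and the interaction used 6 group means, and transfer was fitted alone. P-values were adjusted by Benjamini-Hochberg over all tested genes, and standard errors are on the log2 scale. Alternatives were RLE scaling, other filters, DESeq2 1.42.0, limma-voom 3.58.1, a robust spread, other designs, a diet left out and each library left out in turn. Those for single diets were chosen after seeing the data. The edgeR script was tested on simulated data. The members and lists were chosen with earlier results of these data known.

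Positions came from GENCODE M21 (53009 of 55011 symbols matched, 11556 of the tested genes) and promoters from RefSeq. Shared sequence is the share of a gene's 38-base words found in other annotated transcripts. Named were Arntl and the clock lists, all genes called over the diets with 1 direction, genes with adjusted p from 0.05 to 0.25 and ranges apart in every diet, called list members and called genes within 20 Mb of Arntl. Other genes were chosen after their values were seen, and a gene that the rule would name is not reported here. No 2 libraries of a group were alike within counting noise (chi-square per degree of freedom 4.22 to 12.0).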

Additional observations from a re-analysis of the deposited data

How the results depend on the processing

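Of the 118 recomputed counts of calls, 91 stayed within 1.5 times the reported count. The 18 calls over the diets became 265 with no filter on low counts, 8 without lean diet and 6 without 4 weeks of HFD, and 14 to 24 with 1 library left out. They were 27 by DESeq2 and 24 by limma-voom, each with 17 of the 18 genes. The 10 genes called in no single diet became 50 with no filter, 5 with no diet term, 16 by limma-voom, 19 by DESeq2, 2 without lean diet, 0 without 4 weeks of HFD and 17 without 16 weeks of HFD, and 7 to 19 with 1 library left out. The interaction had 0 calls in edgeR, 18 in DESeq2, and 0 to 20 with 1 library left out. Single diets called 10 (lean) and 50 (16 weeks) when each was fitted alone and 24 and 47 by DESeq2. With 1 library left out they called 4 to 11 (lean), 4 to 6 (4 weeks) and 4 to 35 (16 weeks). Transfer called 61 by DESeq2 and 40 with a replicate block. The causes were not tested.

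Whether the replicate numbers pair the libraries was not settled. Same-numbered KO and WT libraries of a diet had correlations of -0.0423 to 0.104 after each group's mean was taken off. The same number was the best match for some libraries and not for others. With means of 3 libraries removed, low correlations cannot exclude a pairing. With the replicate block 18 genes were called over the diets, 8 higher and 10 lower, 15 of them shared, while Lpar6 (adjusted p = 0.0656), Krt83 (0.121) and Fes (0.0956) no longer passed.

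Of the called genes, 14 kept an adjusted p under 0.05 in every fit with 1 library left out; Dhx40 lost it in 6, Trim12a in 13, and Krt83 and Fes in 14 of the 18 fits. Of the 18, 12 no longer passed without 4 weeks of HFD, 9 without lean diet, 5 without 16 weeks of HFD, 6 with no diet term and 5 with a robust spread. None reversed in any alternative. Among the reported genes, signs turned in 4 clock genes, none of which passed in any alternative. Tef was -0.00847 with no diet term, -0.179 without 4 weeks and -0.00987 without 16 weeks of HFD, and -0.0472 to 0.0715 with 1 library left out. Per2 was -0.00511 with no diet term, -0.0933 with the replicate block, -0.35 by limma-voom and -0.25 without 16 weeks of HFD, and -0.26 to 0.23 with 1 library left out. Nfil3 was -0.0404 without lean diet, -0.142 without 4 weeks of HFD and -0.0100 to 0.224 with 1 library left out. Bhlhe40 was 0.10 without 4 weeks of HFD and -0.203 to 0.025 with 1 library left out. Levels near or under 1 CPM are within 3 counts of 0 and say little on direction.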
